A study of Mus musculus with 53 samples.

Results

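A set of 10 genes that p53 switches on to halt the cell cycle or to restrain p53 itself was followed across 2 RNA-seq experiments in mouse embryonic fibroblasts (MEFs). They are Cdkn1a, Btg2, Gadd45a and Plk2 (arrest), Mdm2, Mdm4, Ccng1 and Ppm1d (feedback on p53), and Sesn1 and Sesn2 (metabolic restraint). They were picked out by symbol, from a list drawn up with earlier results of these data known, and all 10 of the 43432 genes listed in each table were present once and passed the filter on low values in both. The cells were labelled as a knockout of Anp32e (KO) or as wild type (WT). ANP32E is a chaperone that takes the histone variant H2A.Z out of chromatin. In the first experiment, given in FPKM, KO and WT cells received decitabine (DAC), a cytidine analogue that traps DNA methyltransferases, or its solvent DMSO, with 3 KO DAC, 2 KO DMSO, 3 WT DAC and 2 WT DMSO libraries. The second, given in RPKM, depleted H2A.Z by siRNA (H2AZ siRNA) and used the siRNA labelled NT as control; KO H2AZ siRNA, KO NT, WT H2AZ siRNA and WT NT had 3 libraries apiece. The labels give neither the knockout allele, nor the number of embryos or lines, nor the dose and duration of the treatments. Both tables were scaled separately, so levels are compared only within a table.

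In background, p53 is made all the time and destroyed almost as fast, because MDM2, a ubiquitin ligase that p53 itself induces, marks it for degradation. DNA damage breaks this loop, and p53 then induces p21, the product of Cdkn1a, which blocks cyclin-dependent kinases and holds fibroblasts in G1. MDM4 binds and silences p53, while the phosphatase WIP1 (Ppm1d) and cyclin G1 (Ccng1) act on p53 and MDM2 to end the response. H2A.Z has been reported at the Cdkn1a promoter in human cells, where its loss raised p21.

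Promoters of the genes were read from RefSeq on GRCm38.p6, the assembly also called mm10, as 300-base windows from 250 bases before to 50 after an annotated start. All 10 genes had such a window, 13 windows in all. The p53 consensus was searched on both strands as 2 half-sites of 10 bases with no spacer and at most 1 mismatch outside the fixed C and G. The windows searched, called all windows here, leave out 1 chromosome, on which none of the 10 genes lies. The p53 consensus was found in 22 of these 32851 windows (0.067%), and Cdkn1a and Ccng1 had 2 of these 22. The exact p53 half-site, which lies within both full sites, was in 6 of the 13 windows against 8.36% of all windows, in Cdkn1a, Mdm2, Ccng1, Ppm1d, Sesn1 and Gadd45a. TGACGTCA, the letters bound by CREB and ATF factors, was in the windows of Ppm1d, Btg2 and Plk2 against 1.79% of all windows. ATGCAAAT, the octamer bound by OCT factors, was in the window of Gadd45a against 1.74% of all. The known p53 sites of Mdm2 lie in its first intron, outside the window. Cdkn1a had 2 windows, and the full site was in 1 of them, that of the start at the upstream end of the gene (chr17:29090979). Which start the cells used was not tested. These motifs were chosen after the sequences were seen, and a match is a description of the letters, not evidence of binding. Stretches of 60 bases before the start are printed for the pair with a full p53 site and, for contrast, for 3 arrest genes without one in the window, whose responses differed. Capitals mark the matched letters.
Cdkn1a, chr17:29090908-29090967, plus strand, site starting 51 bases before an annotated start: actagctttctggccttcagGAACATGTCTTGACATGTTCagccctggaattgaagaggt
Ccng1, chr11:40755442-40755501, minus strand, site starting 195 bases before: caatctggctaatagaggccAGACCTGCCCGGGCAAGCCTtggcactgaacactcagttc
Plk2, chr13:110394956-110395015, plus strand, TGACGTCA starting 62 bases before: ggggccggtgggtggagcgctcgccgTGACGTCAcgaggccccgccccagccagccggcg
Btg2, chr1:134079288-134079347, minus strand, TGACGTCA starting 166 bases before: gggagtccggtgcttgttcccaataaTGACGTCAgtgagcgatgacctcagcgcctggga
Gadd45a, chr6:67037457-67037516, minus strand, an octamer on each strand, the first starting 97 bases before: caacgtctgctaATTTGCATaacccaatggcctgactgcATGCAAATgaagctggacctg

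Libraries held 27503472 to 36910532 reads (DAC experiment) or 31928320 to 47172427 reads (siRNA experiment), and no gene of the 10 had fewer than 160 reads in a library. Anp32e transcript was lower but present in the KO libraries (5.09 ± 0.313 FPKM in KO DMSO and 14.5 ± 0.0299 in WT DMSO, SD, n = 2 each; 5.07 ± 0.578 RPKM in KO NT and 19.3 ± 1.77 in WT NT, n = 3 each). H2AZ siRNA left H2afz at 27.9 ± 2.18 RPKM in KO and 17.2 ± 0.476 in WT, against 194 ± 8.49 in KO NT and 202 ± 2.56 in WT NT (n = 3 each). H2afv, the other H2A.Z gene, fell as well (log2 fold change −2.57 ± 0.12 in KO and −2.82 ± 0.12 in WT, ± SE). The 7 fibroblast markers were at 1 or more in every group but were not level. They summed to 1087 to 1258 FPKM in KO DAC, 1279 to 1324 in KO DMSO, 1369 to 1551 in WT DAC and 2499 to 2627 in WT DMSO. With DAC 5 of the 7 fell and 2 rose in KO, where 21.6% and 23.7% of all tested genes did. In WT 6 fell and 1 rose, where 13.8% and 14.5% did. The part of these markers in the DAC responses was not tested. In the siRNA table they summed to 1026 to 1082 RPKM in KO H2AZ siRNA, 1152 to 1170 in KO NT, 916 to 955 in WT H2AZ siRNA and 963 to 993 in WT NT. The 6 mesothelial markers summed to 89.2 to 104 FPKM in KO DAC, 799 to 829 in KO DMSO, 37.8 to 49.7 in WT DAC and 9.33 to 11.6 in WT DMSO, where Lrrn4 was at 0. They summed to 111 to 116 RPKM in KO H2AZ siRNA, 127 to 142 in KO NT, 19.4 to 20.3 in WT H2AZ siRNA and 18.4 to 20.4 in WT NT, where Wt1 was at 0. The epithelial markers Epcam and Cdh1 summed to 3.99 to 4.5 FPKM in KO DMSO and to at most 1.35 in any other DAC-table group, while 4 macrophage markers summed to 8.98 to 13.3 FPKM in every group of that table. Of these 4, Adgre1 was at 0 in every library of that table. Only 2 had a group mean of 1 or more in KO DMSO, and only 1 in each other DAC-table group. The 4 Y-linked genes summed to 18.7 to 21.5 FPKM in KO DAC and 10.1 to 11.3 in KO DMSO, against at most 0.164 in WT DAC and 0.0487 in WT DMSO. In the siRNA table they summed to 10.5 to 13 RPKM in KO H2AZ siRNA and 9.25 to 16.6 in KO NT, against at most 0.0024 in WT H2AZ siRNA and 0.00788 in WT NT. With Xist added, 4 of these 5 sex-linked genes were higher and 1 lower in KO in all 4 conditions, where at most 23.7% and 42.7% of all genes were. KO and WT cultures thus differed in Y-linked and mesothelial transcripts as well as in Anp32e, and these cannot be told apart in any difference between the genotypes, interactions included. On the leading principal component (46.7% of the variance) KO DMSO took −66.8 and −66.2, and all other DAC-table libraries lay between 1.9 and 29.9. What sets the KO DMSO cultures apart cannot be told apart from the lack of drug in the DAC response of KO. In these bulk libraries, fewer cells of a type and less RNA per cell cannot be told apart either. WT DAC replicate 3 (0.98), KO DAC replicate 1 (0.9812), WT NT replicate 1 (0.9948) and KO NT replicate 1 (0.9941) had the lowest mean correlation within their groups. The margins were small, as the other libraries of these DAC groups had 0.9828 to 0.9842 and those of the NT groups 0.9945 to 0.9956.

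Most of the 10 genes responded to DAC, and 5 moved in the same direction with both treatments in both genotypes, though not always by the same amount. Cdkn1a, Mdm2, Ccng1 and Sesn2 rose and Sesn1 fell in all 4 responses. With H2AZ siRNA in WT, the calls of Mdm2 (limma adjusted p = 0.0319) and Sesn1 (0.045) were marginal and ended under some alternatives given below. How many of all genes passed in the same direction in all 4 responses was not counted. The other 5 passed the threshold in some of the responses, Plk2 in 3, Btg2 and Gadd45a in 2 each, and Mdm4 and Ppm1d in 1 each. Treatments were not tested against each other. With DAC in KO 5 genes rose and 3 fell, where 23.7% of the 16434 tested genes rose and 21.6% fell. With DAC in WT 7 rose and 1 fell, where 14.5% of all genes rose and 13.8% fell. With H2AZ siRNA in KO 7 rose and 1 fell, where 6.56% of the 12668 tested genes rose and 19% fell. With H2AZ siRNA in WT 4 rose and 1 fell, where 4.88% rose and 10.4% fell. The siRNA-table split of all genes depends on scaling: 831 rose and 2404 fell in KO and 618 and 1315 in WT, and with each library centred on its median 2010 rose and 1367 fell in KO and 1306 and 878 in WT. The median log2 fold change of the 10 genes was 0.46 with DAC in KO, 0.68 with DAC in WT, 0.41 with H2AZ siRNA in KO and 0.15 with H2AZ siRNA in WT, against 0.01, −0.01, −0.06 and −0.03 over all tested genes. Tests are limma on log2(value + 1), with all 4 groups of a table in a single fit, and a gene is said to have risen or fallen at a Benjamini-Hochberg adjusted p under 0.05 over all tested genes. Log2 fold changes are given ± SE, and on this scale they understate changes of low genes.

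**Figure D1:**
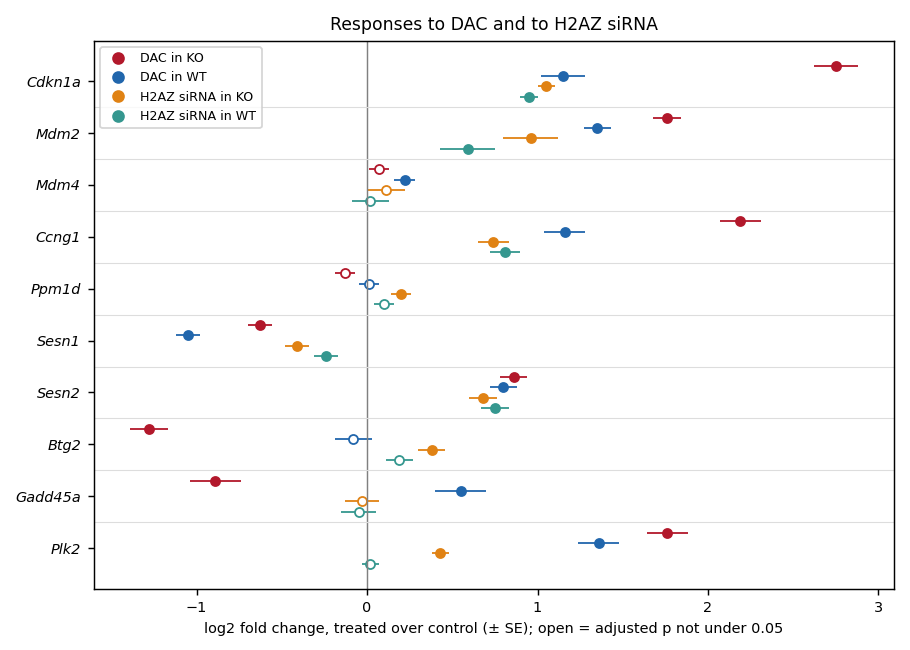
Log2 fold change of each gene, treated over control (x axis, log2(value + 1) scale, bars ± SE), for DAC in KO, DAC in WT, H2AZ siRNA in KO and H2AZ siRNA in WT. Filled points passed an adjusted p under 0.05; Cdkn1a, Mdm2, Ccng1 and Sesn2 lie right of 0 and Sesn1 left of 0 in all 4, while Gadd45a lies on opposite sides with DAC in KO (−0.89) and in WT (0.55).

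Cdkn1a, which encodes the kinase inhibitor p21, was the strongest riser of the 10 in both KO responses and with H2AZ siRNA in WT. It was at 64.9, 75.3 and 71.3 FPKM in KO DAC, against 9.76 and 9.39 in KO DMSO. Its WT levels were 109, 112 and 82.7 FPKM with DAC, against 41.9 and 47.7 with DMSO. In neither genotype did the groups overlap, and KO DMSO lay far below every other group. The log2 fold change with DAC was 2.75 ± 0.13 in KO (limma adjusted p = 8.0e-07), the 25th largest rise of all tested genes, and 1.15 ± 0.13 in WT (adjusted p = 3.1e-04). The response in KO exceeded that in WT by 1.61 ± 0.18 (interaction, limma adjusted p = 3.3e-04). The genotypes differed more in DMSO (KO over WT −2.11 ± 0.14, limma adjusted p = 5.3e-06) than in DAC (−0.50 ± 0.12, adjusted p = 0.0148).

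With H2AZ siRNA, Cdkn1a was at 64.7, 57.6 and 58.3 RPKM in KO, against 27.3, 28.5 and 29.5 in KO NT. WT libraries had 59.9, 58.0 and 55.2 RPKM with H2AZ siRNA, against 28.3, 30.5 and 29.5 with NT. The treated libraries lay apart from the controls, and the genotypes overlapped in both conditions. The rise was 1.05 ± 0.05 in KO (limma adjusted p = 9.4e-07) and 0.95 ± 0.05 in WT (adjusted p = 3.1e-06), placing Cdkn1a 2nd and 3rd from the top of the 12668 genes. Between KO NT and WT NT, Cdkn1a did not pass the threshold (−0.05 ± 0.05, limma adjusted p = 0.458).

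Btg2, whose protein slows proliferation and recruits the CCR4-NOT deadenylase to messenger RNAs, fell with DAC in KO. It was at 22.3, 26.2 and 27.4 FPKM in KO DAC, against 65.9 and 59.5 in KO DMSO. The level in WT was 43.9, 42.0 and 36.8 FPKM with DAC, against 40.2 and 46.4 with DMSO. The KO groups were far apart, with the DMSO libraries the highest of the table, while the WT groups overlapped. The log2 fold change was −1.28 ± 0.11 in KO (limma adjusted p = 2.7e-05) and −0.08 ± 0.11 in WT (adjusted p = 0.64), and the interaction was −1.20 ± 0.16 (adjusted p = 7.5e-04). With H2AZ siRNA, Btg2 was at 20.3, 18.1 and 18.3 RPKM in KO, against 15.1, 14.0 and 13.7 in KO NT. WT cells gave 27.5, 26.5 and 27.8 RPKM with H2AZ siRNA, against 26.9, 21.3 and 23.2 with NT. It rose in KO without overlap (0.38 ± 0.08, limma adjusted p = 0.00409). In WT the groups overlapped through NT replicate 1 (0.19 ± 0.08, adjusted p = 0.108), without which the log2 fold change was 0.28 and passed the threshold. With all libraries kept, it also passed with a replicate block (0.19) and with median centring (0.25), and over 20 alternatives the adjusted p ran from 0.0106 to 0.317.

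Gadd45a, which encodes a small stress protein that inhibits the mitotic kinase CDK1, moved in opposite directions with DAC. It was at 7.66, 9.11 and 9.37 FPKM in KO DAC, against 17.7 and 16.2 in KO DMSO. For WT the values were 5.82, 6.19 and 4.16 FPKM with DAC, against 2.96 and 3.69 with DMSO. Neither pair overlapped, and KO DMSO was the highest group as WT DMSO was the lowest. It fell in KO (−0.89 ± 0.15, limma adjusted p = 0.00148) and rose in WT (0.55 ± 0.15, adjusted p = 0.0261), with an interaction of −1.44 ± 0.21 (adjusted p = 0.00152). The rise in WT ended without WT DAC replicate 1 (0.50) or 2 (0.46) or WT DMSO replicate 1 (0.43) or 2 (0.68), and in a fit of the WT groups alone (0.55), with adjusted p from 0.00179 to 0.167 over 18 alternatives. H2AZ siRNA gave 6.36, 5.83 and 7.25 RPKM in KO, against 6.97, 5.79 and 7.21 in KO NT. In WT the levels were 4.84, 5.19 and 5.34 RPKM with H2AZ siRNA, against 6.05, 4.67 and 5.41 with NT. Groups overlapped in both genotypes, and no response passed (−0.03 ± 0.10 in KO, limma adjusted p = 0.836, and −0.05 ± 0.10 in WT, adjusted p = 0.765).

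Plk2, a polo-like kinase gene, rose with DAC in both genotypes. It was at 33.1, 38.6 and 35.3 FPKM in KO DAC, against 10.8 and 8.86 in KO DMSO. Its WT levels were 51.5, 53.7 and 42.0 FPKM with DAC, against 18.4 and 18.4 with DMSO. Treated and control libraries did not overlap, and each WT group lay above its KO counterpart. The log2 fold change was 1.76 ± 0.12 in KO (limma adjusted p = 5.9e-06) and 1.36 ± 0.12 in WT (adjusted p = 8.6e-05), and their difference did not pass (0.40 ± 0.17, adjusted p = 0.121). With H2AZ siRNA, Plk2 was at 41.6, 39.6 and 35.9 RPKM in KO, against 29.7, 28.5 and 27.4 in KO NT. WT libraries had 74.3, 70.0 and 71.8 RPKM with H2AZ siRNA, against 70.6, 72.4 and 70.2 with NT. Plk2 rose in KO (0.43 ± 0.05, limma adjusted p = 2.8e-04), and the WT groups overlapped (0.02 ± 0.05, adjusted p = 0.853). The difference between those responses, 0.42 ± 0.08, did not pass over all genes (interaction, limma adjusted p = 0.156).

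**Figure D2:**
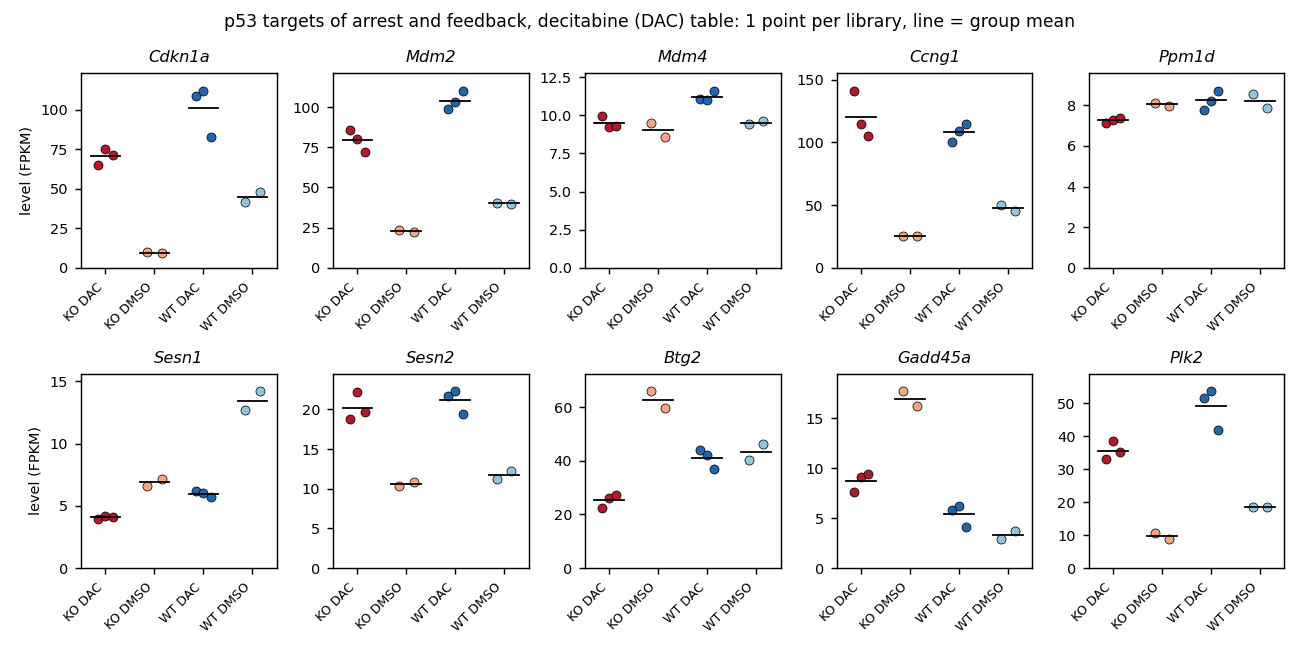
Level of each gene in every library of the DAC table (y axis, FPKM from 0, 1 point per library, line at the group mean) for KO DAC, KO DMSO, WT DAC and WT DMSO. KO DMSO holds the lowest Cdkn1a libraries (9.76 and 9.39 FPKM) and the highest Btg2 and Gadd45a libraries.

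Mdm2, the ubiquitin ligase gene at the centre of the feedback loop, rose in all 4 responses. It was at 85.6, 80.4 and 72.2 FPKM in KO DAC, against 23.2 and 22.1 in KO DMSO. The level in WT was 98.7, 103 and 110 FPKM with DAC, against 40.5 and 39.9 with DMSO. Neither pair came near to overlap. The rise was 1.76 ± 0.08 in KO (limma adjusted p = 5.5e-07) and 1.35 ± 0.08 in WT (adjusted p = 1.1e-05). Their difference was 0.41 ± 0.11 (interaction, limma adjusted p = 0.0237), with an adjusted p from 0.00869 to 0.1 over 17 alternatives. It ended with a replicate block (0.41) and without KO DAC replicate 2 (0.40), KO DMSO replicate 1 (0.45) or 2 (0.38), WT DAC replicate 2 (0.41), or WT DMSO replicate 1 (0.40) or 2 (0.42).

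With H2AZ siRNA, Mdm2 was at 20, 14.3 and 12.9 RPKM in KO, against 9.07, 6.85 and 6.72 in KO NT. WT cells gave 22.1, 19.6 and 21.9 RPKM with H2AZ siRNA, against 17.1, 12.2 and 12.5 with NT. Treated and control libraries of a genotype did not overlap, while KO H2AZ siRNA overlapped both WT groups. The libraries numbered 1 in KO H2AZ siRNA, KO NT and WT NT stood above the others of their groups. The rise was 0.96 ± 0.16 in KO (limma adjusted p = 0.00163), the 5th largest of all genes, and 0.59 ± 0.16 in WT (adjusted p = 0.0319). The WT rise ended with no filter on low values (0.59) and without WT NT replicate 2 (0.51) or 3 (0.52) or WT H2AZ siRNA replicate 1 (0.56), 2 (0.64) or 3 (0.56), with adjusted p from 0.0025 to 0.107 over 20 alternatives.

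Mdm4, whose protein binds p53 and blocks its activity, moved little. It was at 9.95, 9.26 and 9.27 FPKM in KO DAC, against 9.48 and 8.59 in KO DMSO, which overlapped (0.07 ± 0.06, limma adjusted p = 0.422). For WT the values were 11.1, 11 and 11.6 FPKM with DAC, against 9.40 and 9.61 with DMSO. The WT groups were apart and the rise was small (0.22 ± 0.06, limma adjusted p = 0.0287, from 0.013 to 0.136 over 18 alternatives). It ended with a replicate block (0.21), in a fit of the WT groups alone (0.22), and without any 1 of WT DAC replicates 1 (0.23), 2 (0.23) and 3 (0.20) and WT DMSO replicates 1 (0.20) and 2 (0.23). H2AZ siRNA left it at 1.92, 1.43 and 1.65 RPKM in KO, against 1.83, 1.26 and 1.35 in KO NT. Its WT levels were 2.78, 2.39 and 2.85 RPKM with H2AZ siRNA, against 3.22, 2.32 and 2.38 with NT. Both pairs overlapped, and neither passed (0.11 ± 0.11 in KO, limma adjusted p = 0.53, and 0.02 ± 0.11 in WT, adjusted p = 0.934).

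Since Mdm2 and Mdm4 restrain p53 together, their levels per length were also set against each other within each library. Mdm2 over Mdm4 was 8.36 ± 0.493 in KO DAC (SD, n = 3) and 2.51 ± 0.0868 in KO DMSO (n = 2). In WT it was 9.27 ± 0.31 with DAC (n = 3) and 4.23 ± 0.107 with DMSO (n = 2). With H2AZ siRNA it was 9.41 ± 1.38 in KO, against 5.13 ± 0.273 in KO NT, and 7.95 ± 0.231 in WT, against 5.26 ± 0.0436 in WT NT (n = 3 each). The ratio was higher in every treated library than in every control library of its genotype. Mdm4 was counted over 14798 bases of exon and Mdm2 over 5070, so the ratio's absolute size depends on the gene models.

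Ccng1, which encodes cyclin G1, a partner of the phosphatase PP2A that acts on MDM2, rose in all 4 responses. It was at 141, 115 and 105 FPKM in KO DAC, against 25.6 and 25.2 in KO DMSO. WT libraries had 100, 109 and 115 FPKM with DAC, against 50 and 45.4 with DMSO. The DAC libraries of both genotypes overlapped, while KO DMSO lay below WT DMSO. The rise was 2.19 ± 0.12 in KO (limma adjusted p = 1.5e-06) and 1.16 ± 0.12 in WT (adjusted p = 1.7e-04), with an interaction of 1.03 ± 0.16 (adjusted p = 0.00217). With H2AZ siRNA, Ccng1 was at 93.8, 90.3 and 95.8 RPKM in KO, against 60.7, 45.7 and 61.7 in KO NT. The level in WT was 208, 191 and 214 RPKM with H2AZ siRNA, against 118, 120 and 111 with NT. No groups overlapped, and KO with H2AZ siRNA lay below WT with NT. The rises were 0.74 ± 0.09 in KO (limma adjusted p = 3.5e-04) and 0.81 ± 0.09 in WT (adjusted p = 3.6e-04).

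Ppm1d, the WIP1 phosphatase gene, passed in 1 of the 4 responses. It was at 7.14, 7.28 and 7.37 FPKM in KO DAC, against 8.11 and 7.99 in KO DMSO, lower without overlap but not past the threshold (−0.13 ± 0.06, limma adjusted p = 0.122). WT cells gave 7.79, 8.23 and 8.71 FPKM with DAC, against 8.54 and 7.85 with DMSO, which overlapped (0.01 ± 0.06, adjusted p = 0.948). H2AZ siRNA gave 5.13, 4.69 and 4.64 RPKM in KO, against 4.19, 3.98 and 4.05 in KO NT. The KO groups were apart and the rise was 0.20 ± 0.06 (limma adjusted p = 0.027). For WT the values were 5.46, 5.55 and 5.03 RPKM with H2AZ siRNA, against 5.16, 5.03 and 4.58 with NT, which overlapped (0.10 ± 0.06, adjusted p = 0.271). The KO rise ended in a fit of the KO groups alone, with the same-numbered libraries paired (0.20) or unpaired (0.20), with no filter (0.20), and without KO NT replicate 2 (0.18) or 3 (0.19) or KO H2AZ siRNA replicate 1 (0.16) or 2 (0.21); its adjusted p ran from 0.00415 to 0.101 over 21 alternatives.

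**Figure D3:**
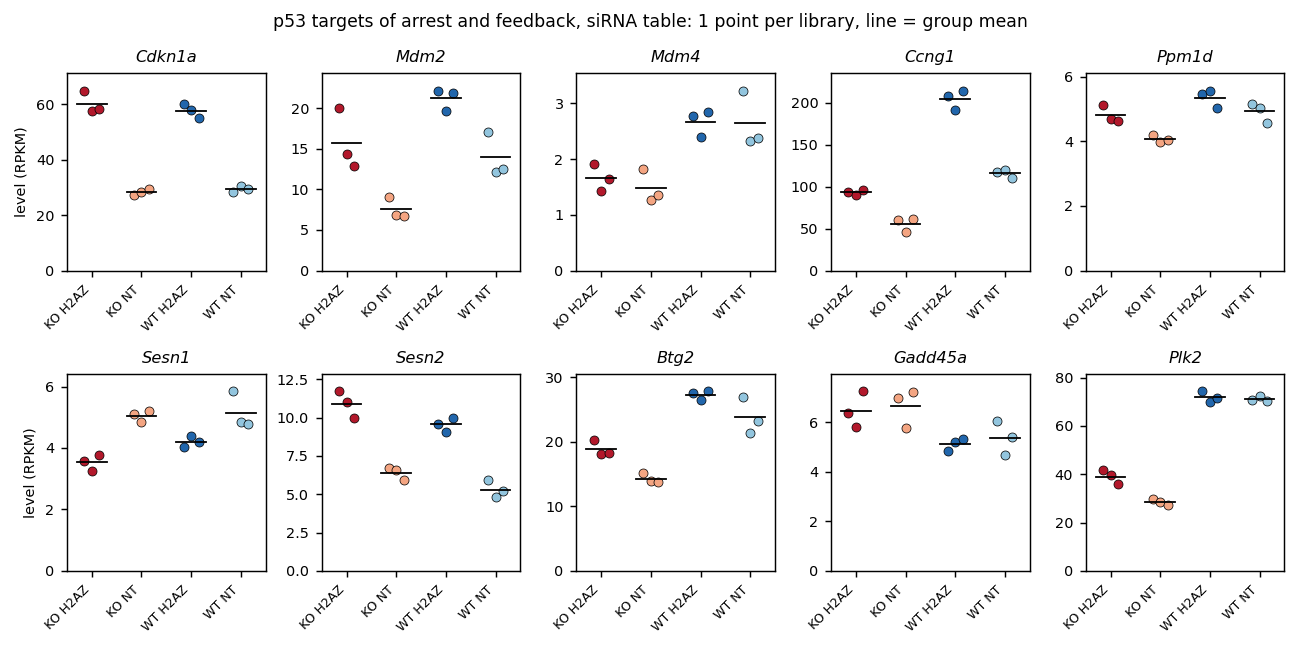
Level of each gene in every library of the siRNA table (y axis, RPKM from 0, 1 point per library, line at the group mean) for KO H2AZ siRNA, KO NT, WT H2AZ siRNA and WT NT. For Cdkn1a, Mdm2, Ccng1 and Sesn2 every H2AZ siRNA library lies above every NT library of its genotype, and Ccng1 and Plk2 lie lower in KO than in WT.

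Sesn1 and Sesn2 encode sestrins, stress proteins that hold back the growth kinase complex mTORC1, and they moved in opposite directions throughout. Sesn2 was at 18.8, 22.2 and 19.7 FPKM in KO DAC, against 10.4 and 10.9 in KO DMSO. Its WT levels were 21.7, 22.3 and 19.4 FPKM with DAC, against 11.2 and 12.2 with DMSO. Levels under the same treatment were close in both genotypes, and treated and control libraries were apart. Sesn2 rose by 0.86 ± 0.08 in KO (limma adjusted p = 5.9e-05) and 0.80 ± 0.08 in WT (adjusted p = 2.3e-04). The difference of these responses was 0.06 ± 0.12 (interaction, limma adjusted p = 0.787). With H2AZ siRNA, Sesn2 was at 11.7, 11 and 9.97 RPKM in KO, against 6.70, 6.57 and 5.95 in KO NT. WT libraries had 9.61, 9.08 and 10 RPKM with H2AZ siRNA, against 5.90, 4.81 and 5.20 with NT. Neither pair overlapped, and the rises were 0.68 ± 0.08 in KO (limma adjusted p = 1.5e-04) and 0.75 ± 0.08 in WT (adjusted p = 1.6e-04).

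Sesn1 was at 3.98, 4.16 and 4.12 FPKM in KO DAC, against 6.60 and 7.19 in KO DMSO. The level in WT was 6.20, 6.01 and 5.71 FPKM with DAC, against 12.7 and 14.2 with DMSO. The groups were apart in both genotypes, with WT DMSO the highest by a wide margin. It fell by 0.63 ± 0.07 in KO (log2 fold change −0.63, limma adjusted p = 1.2e-04) and by 1.05 ± 0.07 in WT (−1.05, adjusted p = 2.5e-05). The fall was smaller in KO by 0.41 ± 0.10 (interaction, limma adjusted p = 0.016, from 0.0115 to 0.08 over 17 alternatives), and it was lost on leaving out KO DMSO replicate 1 (0.36) or WT DMSO replicate 2 (0.34). With H2AZ siRNA, Sesn1 was at 3.58, 3.26 and 3.78 RPKM in KO, against 5.11, 4.84 and 5.19 in KO NT. WT cells gave 4.02, 4.40 and 4.19 RPKM with H2AZ siRNA, against 5.84, 4.84 and 4.78 with NT. Both pairs were apart, but WT NT replicate 1 stood above the other WT NT libraries. The fall was clear in KO (−0.41 ± 0.07, limma adjusted p = 0.0018) and marginal in WT (−0.24 ± 0.07, adjusted p = 0.045, from 0.0394 to 0.143 over 20 alternatives). The WT fall ended without WT NT replicate 1 (−0.16) or 2 (−0.27), KO NT replicate 2 (−0.24) or 3 (−0.24), WT H2AZ siRNA replicate 1 (−0.21), 2 (−0.27) or 3 (−0.24), or KO H2AZ siRNA replicate 1 (−0.24). It also ended with no filter (−0.24), with median centring (−0.18), in a fit of the WT groups alone (−0.24) and without both NT replicates 1 (−0.16).

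The balance of the sestrins therefore shifted with treatment. Sesn2 over Sesn1 was 4.94 ± 0.326 in KO DAC and 1.55 ± 0.0462 in KO DMSO, and 3.54 ± 0.163 in WT DAC and 0.871 ± 0.0198 in WT DMSO (SD, n = 3 with DAC and n = 2 with DMSO). In the siRNA table it was 3.09 ± 0.403 in KO H2AZ siRNA and 1.27 ± 0.111 in KO NT, and 2.28 ± 0.188 in WT H2AZ siRNA and 1.03 ± 0.0488 in WT NT (n = 3 each). In WT DMSO Sesn1 was the more abundant per length, and with DAC Sesn2 was.

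**Figure D4:**
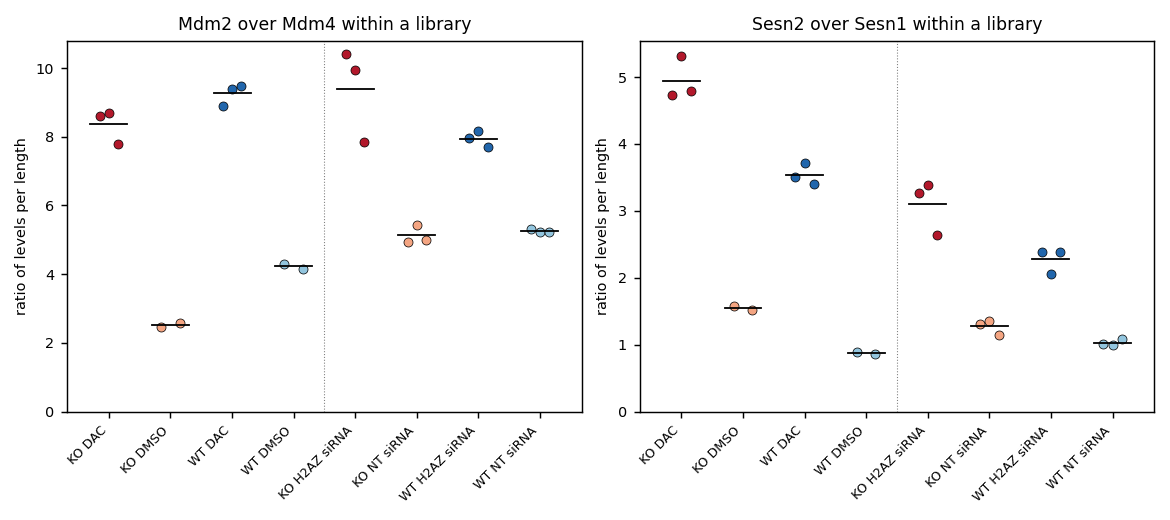
Ratio of levels per length within each library (y axis from 0, 1 point per library, line at the group mean), Mdm2 over Mdm4 on the left and Sesn2 over Sesn1 on the right, with DAC-table groups left of the dotted line and siRNA-table groups right of it. Both ratios are higher in every treated library than in every control library of the same genotype.

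Taking the interactions as a group, 4 of the 10 genes had a more positive DAC response in KO than in WT (Cdkn1a, Ccng1, Mdm2 and Sesn1) and 2 a more negative one (Btg2 and Gadd45a), where 12.4% and 11.7% of all genes did. For H2AZ siRNA no gene of the 10 passed the threshold in either direction, where 0.00789% (1 gene, H2afz itself) and 0% of all genes did. That does not show equal responses, as Plk2 had a difference of 0.42 ± 0.08 without passing (limma adjusted p = 0.156). At an unadjusted p under 0.05 the siRNA interaction had 1095 genes by limma and 1052 by limma-voom on recovered reads, which called 2 genes. That table has 3 libraries in every group, and the standard errors of the 10 genes there ran from 0.08 (Cdkn1a, Ppm1d and Plk2) to 0.23 (Mdm2).

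KO was compared with WT within each condition to ask how the genotypes differ in level. In DMSO 2 genes were higher in KO and 5 lower, where 19.6% of all genes were higher and 22.9% lower. Gadd45a was higher by 2.06 ± 0.17 (limma adjusted p = 1.7e-05) and Btg2 by 0.52 ± 0.12 (adjusted p = 0.0078). Besides Cdkn1a, the lower genes were Ccng1 (−0.88 ± 0.13), Sesn1 (−0.87 ± 0.08), Plk2 (−0.85 ± 0.13) and Mdm2 (−0.80 ± 0.08). The Btg2 call ended without KO DMSO replicate 1 (0.45) or WT DMSO replicate 1 (0.42). These differences go with the mesothelial and Y-linked sums given above, whose part in them was not tested. In DAC 1 gene was higher (Gadd45a, 0.61 ± 0.14) and 6 lower, where 11.1% and 11.6% of all genes were. The lower genes were Btg2 (−0.67 ± 0.10), Cdkn1a (−0.50 ± 0.12), Sesn1 (−0.45 ± 0.06), Plk2 (−0.44 ± 0.11), Mdm2 (−0.39 ± 0.07) and Mdm4 (−0.22 ± 0.05). Without WT DAC replicate 1, Cdkn1a (−0.44), Plk2 (−0.41) and Mdm4 (−0.23) were lost, and without WT DAC replicate 2 the same 3 were (−0.43, −0.38 and −0.23). Plk2 was also lost without KO DAC replicate 1 (−0.39) or 3 (−0.44), and Mdm4 without KO DAC replicate 2 (−0.20) or 3 (−0.20). Btg2 was thus higher in KO in DMSO and lower in KO in DAC.

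In the siRNA experiment more of the 10 genes were lower in KO than higher. Over all genes more were lower than higher in KO, and with each library centred on its median more were higher (4288 against 3780 lower with NT siRNA, and 4281 against 3635 with H2AZ siRNA). With NT siRNA 2 were higher and 6 lower, where 23.7% and 40.4% of all genes were. Plk2 (−1.29 ± 0.05, limma adjusted p = 6.8e-09) and Ccng1 (−1.05 ± 0.09, adjusted p = 3.3e-06) differed most, followed by Mdm2 (−0.80 ± 0.16), Btg2 (−0.70 ± 0.08), Mdm4 (−0.55 ± 0.11, and −0.84 with a pseudocount of 0.1) and Ppm1d (−0.22 ± 0.06, and −0.10 and lost with median centring). Gadd45a (0.26 ± 0.10) and Sesn2 (0.23 ± 0.08) were higher. The Gadd45a call ended with no filter (0.26), in a fit of the NT groups alone (0.26), and without WT NT replicate 2 (0.18) or 3 (0.27) or KO NT replicate 1 (0.23) or 3 (0.21). The Sesn2 call ended without WT NT replicate 2 (0.18) or KO NT replicate 1 (0.21) or 2 (0.22).

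With H2AZ siRNA 1 gene was higher in KO (Gadd45a, 0.28 ± 0.10) and 6 lower, where 20.2% and 42.7% of all genes were. Ccng1 (−1.12 ± 0.09), Plk2 (−0.87 ± 0.05), Btg2 (−0.51 ± 0.08), Mdm4 (−0.46 ± 0.11), Mdm2 (−0.43 ± 0.16) and Sesn1 (−0.20 ± 0.07) were lower. The median of all genes was −0.121 in this comparison, so the values of Sesn1 and Ppm1d (−0.13 ± 0.06) were close to that of genes at large. With each library centred on its median, Mdm2 (−0.27) and Sesn1 (−0.04) were no longer called, Sesn2 (0.32) and Cdkn1a (0.21) were called higher, and Ppm1d (0.03) lay on the other side of 0 without passing in either scaling. The Mdm2 call also ended with no filter (−0.43) and without WT H2AZ siRNA replicate 1 (−0.40) or 3 (−0.40) or KO H2AZ siRNA replicate 2 (−0.37) or 3 (−0.31). The Sesn1 call ended with no filter (−0.20) and without WT H2AZ siRNA replicate 2 (−0.17) or 3 (−0.20) or KO H2AZ siRNA replicate 1 (−0.20) or 2 (−0.15). That of Gadd45a ended with no filter (0.28) and without WT H2AZ siRNA replicate 1 (0.25) or KO H2AZ siRNA replicate 3 (0.21). Sesn2, at 0.17 ± 0.08, was also called with a replicate block (0.17) and without WT NT replicate 1 (0.17) or KO H2AZ siRNA replicate 3 (0.23), and Ppm1d with a replicate block (−0.13) and without WT H2AZ siRNA replicate 3 (−0.16) or KO H2AZ siRNA replicate 1 (−0.16).

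**Figure D5:**
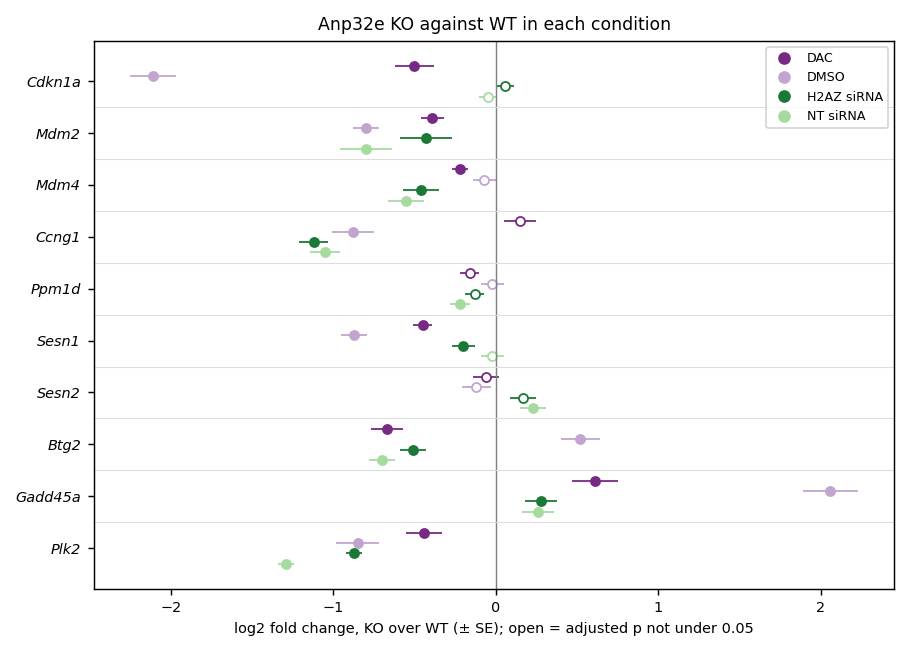
Log2 fold change of each gene, KO over WT (x axis, log2(value + 1) scale, bars ± SE), in DAC, DMSO, H2AZ siRNA and NT siRNA. Filled points passed an adjusted p under 0.05; Cdkn1a lies at −2.11 in DMSO and at −0.05 with NT siRNA, and Btg2 is higher in KO in DMSO alone.

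Set side by side per length, Ccng1 was the highest of the 10 genes in 7 of the 8 groups. The exception was KO DMSO, where Btg2 (62.7 ± 4.55 FPKM) exceeded Ccng1 (25.4 ± 0.238) and Mdm2 (22.7 ± 0.798), and where Sesn2, Plk2 and Cdkn1a each overlapped the next in order, down to Mdm4, with means between 10.7 and 9.04 FPKM. In KO DAC the order was Ccng1 (121 ± 18.5 FPKM), then Mdm2 (79.4 ± 6.76) and Cdkn1a (70.5 ± 5.23), which overlapped. In WT DAC Ccng1 (108 ± 7.46 FPKM), Mdm2 (104 ± 5.57) and Cdkn1a (101 ± 16) overlapped in turn. In WT DMSO Ccng1 (47.7 ± 3.26 FPKM), Cdkn1a (44.8 ± 4.07), Btg2 (43.3 ± 4.42) and Mdm2 (40.2 ± 0.402) did so. In all 4 siRNA groups Mdm4 was the lowest per length, from 1.48 ± 0.308 RPKM in KO NT to 2.67 ± 0.244 in WT H2AZ siRNA.

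Cdkn1a was used to ask which genes shared its pattern, by the mean of its Pearson correlations over the 10 DAC-table and the 12 siRNA-table libraries among 5936 genes. The closest were Gtse1 (0.991 and 0.981), Phlda3 (0.993 and 0.976), Ak1 (0.987 and 0.961), Bax (0.955 and 0.968) and Psrc1 (0.988 and 0.934). These correlations describe libraries that share groups and carry no test. Sesn2 ranked 22nd (0.863 and 0.928), Mdm2 48th (0.947 and 0.723) and Ccng1 140th (0.913 and 0.561). Plk2 followed Cdkn1a closely in the DAC table only (0.961, against 0.208 in the siRNA table). Btg2 (−0.664 and 0.411) and Gadd45a (−0.641 and −0.139) ran against it in the DAC table, and Sesn1 in both tables (−0.274 and −0.869).

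A list of 25 genes of cell death and repair, drawn up as other p53 targets, mostly rose. Whether p53 acts on each of them in these mouse cells was not tested. With DAC 20 rose and 2 fell in KO, where 23.7% and 21.6% of all genes did, and 17 rose and 1 fell in WT, where 14.5% and 13.8% did. With H2AZ siRNA 17 of 24 measured rose in KO and 16 in WT, where 6.56% and 4.88% of all genes rose, and none fell. The death gene Perp rose with DAC in KO (2.33 ± 0.11, limma adjusted p = 9.5e-07) and in WT (1.54 ± 0.11, adjusted p = 3.9e-05), and the death receptor gene Eda2r rose with H2AZ siRNA in KO (0.58 ± 0.08, adjusted p = 5.5e-04) and in WT (0.60 ± 0.08, adjusted p = 8.8e-04). Ddb2, of nucleotide excision repair, fell with DAC in KO (−1.01 ± 0.07) and in WT (−0.38 ± 0.07). The list's median was 1.04 with DAC in KO and 0.46 in WT, and 0.37 with H2AZ siRNA in KO and 0.43 in WT, against 0.01, −0.01, −0.06 and −0.03 over all genes. In DMSO 18 of the 25 were lower in KO than in WT and 3 higher, where 22.9% and 19.6% of all genes were.

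Trp53 itself, the p53 gene, rose modestly with DAC in KO (0.30 ± 0.05, limma adjusted p = 0.00142) and in WT (0.47 ± 0.05, adjusted p = 2.4e-04). It was 42 ± 0.111 FPKM in KO DMSO and 32.9 ± 0.54 in WT DMSO (n = 2 each), and thus higher in KO (0.34 ± 0.06, limma adjusted p = 0.00114). Trp53 was also called higher in KO than in WT in DAC (0.17 ± 0.05), with NT siRNA (0.26 ± 0.06) and with H2AZ siRNA (0.23 ± 0.06). Cdkn1a was lower in KO in DMSO and in DAC, and did not pass between the genotypes in either siRNA condition. None of the 9 genes for p53 and its regulators changed with H2AZ siRNA in either genotype at an adjusted p under 0.05. Of all genes 6.56% rose and 19% fell in KO, and 4.88% rose and 10.4% fell in WT. The protein and its modification were not measured.

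Of 20 cell-cycle genes listed as repressed after p21, 15 rose and 2 fell with DAC in KO, where 23.7% and 21.6% of all genes did. In WT 6 rose and 1 fell, where 14.5% and 13.8% did. Ccne1, which encodes cyclin E1, rose by 1.62 ± 0.08 in KO (limma adjusted p = 9.0e-07) and 0.36 ± 0.08 in WT (adjusted p = 0.0094), and the mitotic kinase gene Plk1 by 1.06 ± 0.08 and 0.35 ± 0.08. In DMSO 10 of the 20 were already lower in KO than in WT and 1 higher, where 22.9% and 19.6% of all genes were. The KO rises thus start from the KO DMSO libraries that lay apart from all others. With H2AZ siRNA 1 rose in KO (Ccnb1, 0.16 ± 0.05) and none in WT, where 6.56% and 4.88% of all genes rose. None fell in either, where 19% and 10.4% of all genes did. Cdkn1a rose by 1.05 and 0.95 in the same comparisons. Whether p21 bears on these cell-cycle genes here was not tested. Of 9 family relatives of the 10 genes, 2 rose and 3 fell with DAC in KO, where 23.7% and 21.6% of all genes did. The counts were the same in WT, where 14.5% and 13.8% of all genes did. With H2AZ siRNA none rose and 2 fell in KO, where 6.56% and 19% did. In WT 1 rose and 1 fell, where 4.88% and 10.4% did. With so few genes, no difference from genes at large is claimed. Cdkn1c, the gene of the inhibitor p57, rose with DAC in KO (1.58 ± 0.19), as did Gadd45g (1.41 ± 0.29), and fell with H2AZ siRNA in KO (−0.22 ± 0.07). Btg3 (1.04 ± 0.11) and Plk3 (0.61 ± 0.13) rose with DAC in WT, and Btg1 rose with H2AZ siRNA in WT (0.21 ± 0.06). Cdkn1b, the gene of the related inhibitor p27, fell where Cdkn1a rose, with DAC in KO (−0.81 ± 0.06) and WT (−1.23 ± 0.06) and with H2AZ siRNA in KO (−0.62 ± 0.08) and WT (−0.40 ± 0.08). Sesn3 fell with DAC like Sesn1, in KO (−0.52 ± 0.09) and WT (−0.78 ± 0.09). Ccng2, unlike Ccng1, fell with DAC in KO (−0.58 ± 0.07) and WT (−0.52 ± 0.07).

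Sesn2 and Atf3 are also targets of ATF4, the factor of amino-acid stress. Of 7 such genes, Sesn2 included, 4 rose and 1 fell with DAC in KO, where 23.7% and 21.6% of all genes did, and 5 rose and none fell in WT, where 14.5% and 13.8% did. The gene that fell with DAC in KO was Atf3 (−0.55 ± 0.11), which rose in WT (1.21 ± 0.11). With H2AZ siRNA 3 rose in KO and in WT Sesn2 alone did, where 6.56% and 4.88% of all genes rose, and none fell. Whether ATF4 bears on Sesn2 was not tested. Btg2 and Gadd45a were set beside 8 immediate early genes, which respond within minutes to serum and stress. Of these 6 fell and none rose with DAC in KO, where 21.6% of all genes fell and 23.7% rose, and 4 fell and 3 rose in WT, where 13.8% fell and 14.5% rose. With H2AZ siRNA none of 7 measured changed in KO, where 6.56% of all genes rose and 19% fell. In WT 1 fell (Dusp1, −0.37 ± 0.06) and none rose, where 10.4% of all genes fell and 4.88% rose. Fos was at 23.9 ± 4.21 FPKM in KO DAC and 130 ± 12.6 in KO DMSO, and at 46.7 ± 8.18 in WT DAC and 120 ± 31.5 in WT DMSO (SD). Whether the immediate early genes bear on Btg2 or Gadd45a was not tested.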

How the data were processed

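RNA libraries only were used; the CUT&Tag samples were not analysed here. The authors deposited FPKM values for the DAC experiment and RPKM values for the siRNA experiment. Per the submitters' processing notes the tools included Bowtie2, STAR and deepTools, on mm10. Tool versions, the read counter and the annotation were not given in those sources. The labels' protocols name a stranded total RNA kit, but the strand setting of the counting is not given, so antisense partners may not be separated. The values were whole multiples of 1 read for 100.0% of DAC-table and 98.64% of siRNA-table genes above 0 (tolerance 0.01 read), which gave library totals, reads and counted lengths.

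Genes at 1 or more in at least 2 (DAC table) or 3 (siRNA table) libraries were fitted per table with limma 3.58.1 under R 4.3.3 on log2(value + 1) with an intensity trend. The method was tested on simulated data. Python 3.11.15, numpy 2.4.6, pandas 2.3.3 and matplotlib 3.10.9 did the rest. Alternatives were median centring, a replicate block, a fit of only the groups compared, limma-voom on recovered reads, a filter at 5 or none, a pseudocount of 0.1, and leaving out each library. A library then alone in its group is assumed to have the spread of the rest. Leaving out, in each table, both libraries named above for the lowest correlation within their groups was added after seeing the data. So was a paired fit of the KO siRNA groups alone.

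The 10 genes, the lists and the motifs were chosen with earlier results of these data known. Of each list the text names some of up to 3 called genes per direction with the largest change, and, for Cdkn1a, the 5 genes with the highest mean correlation among annotated genes with a mean of 5 or more in the highest group of each table. Deviations of same-numbered libraries correlated at 0.144 to 0.27 in KO H2AZ siRNA and KO NT, taken as pairs by these values and not by the labels, and not over 0.1 throughout in any other pair of groups. Single values elsewhere were as high (0.319 for WT NT replicate 1 and KO NT replicate 1), so the pairing is not established. Labels call most libraries biological replicates without saying what was separate, so p-values measure the spread between these samples. Columns of unmapped samples numbered 0.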

Additional observations from a re-analysis of the deposited data

Results flagged for a closer look

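For 6 of the 10 genes the response to DAC differed between KO and WT, by limma's interaction term (response in KO minus response in WT, log2 scale). The difference was 1.61 for Cdkn1a, 1.03 for Ccng1, 0.41 for Mdm2, 0.41 for Sesn1, −1.20 for Btg2 and −1.44 for Gadd45a. Those of Mdm2 and Sesn1 are the ones that single libraries could end, as given above. In each of the 6 genes the KO DMSO libraries, which lay far from all others on the first principal component, enter the difference.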

How the results depend on the processing

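No called result of the 10 genes changed direction under the alternatives run. Of 675 values of single genes under the planned settings that keep all libraries, 651 kept their side of the threshold, 18 lost the call and 6 gained it; with 1 library left out these were 1032, 63 and 5 of 1100. The numbers of genes called changed by over 1.5 times in a few cases. The genes lower with H2AZ siRNA in WT (1) were 0 with no filter, median centring, only the groups compared and without both NT replicates 1, and 0 to 1 with a library left out. Those higher in KO with NT siRNA (2) were 1 with no filter or only the groups compared, and 0 to 2 with a library left out. Those higher in KO with H2AZ siRNA (1) were 0 with no filter, 3 with median centring, 2 with the replicate block and 2 without both NT replicates 1, and 0 to 2 with a library left out. With a library left out, those higher in KO in DMSO were 1 to 2, those lower in KO in DAC 3 to 6, and those with a more positive DAC response in KO 2 to 4. The cause was not tested. Median centring gave 2010 higher and 1367 lower genes with H2AZ siRNA in KO in place of 831 and 2404, and 1306 and 878 in WT in place of 618 and 1315. For KO over WT it gave 4288 and 3780 with NT siRNA in place of 3004 and 5122, and 4281 and 3635 with H2AZ siRNA in place of 2563 and 5409. With H2AZ siRNA in KO, where same-numbered libraries were taken as pairs by their correlations, the replicate block on all groups ended no call. In a fit of the KO groups alone the Ppm1d call ended both unpaired (0.20, limma adjusted p = 0.0679) and paired (0.20, adjusted p = 0.053), with a range of 0.00415 to 0.101 over 21 alternatives. Where numbers are only shared, the replicate block gave 1960 higher and 1735 lower genes with DAC in WT, against 2384 and 2274 without it. Each of the 10 genes had at least 160 reads in every library; DMSO groups of 2 libraries limit the precision of the DAC table.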
